A study of Mus musculus with 6 samples.

Results

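The cathepsins are the proteases of the lysosome, and 10 of their genes, Ctsa, Ctsb, Ctsc, Ctsd, Ctsf, Ctsh, Ctsk, Ctsl, Ctss and Ctsz, were followed here among the 12393 genes measured by Affymetrix arrays in mouse skeletal muscle. A member was every probe set, the group of short oligonucleotides that reads a transcript, whose sole gene symbol in the platform annotation was among these names, which gave 15 probe sets. From textbook knowledge the genes were divided into 5 ubiquitous cathepsins (Ctsa, Ctsb, Ctsd, Ctsf and Ctsl) and 5 macrophage-enriched cathepsins (Ctsc, Ctsh, Ctsk, Ctss and Ctsz). The study injected the muscle of wild-type C57BL/6 mice with an adeno-associated virus (AAV) and took RNA 21 days later. In 3 mice the virus carried the cDNA of murine Tfeb (also Tcfeb), and in 3 other mice it carried green fluorescent protein (GFP), so that both groups received virus and neither was uninjected. The labels give an age of 1 month, while the study's text calls the animals adult. Per the study's methods the viral promoter was that of cytomegalovirus, which is not restricted to muscle fibres, and the labels do not say which muscle was taken. Each mouse gave 1 array, and the labels call the arrays biological replicates.

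Cathepsins are made as inactive precursors, carried to the lysosome mainly by mannose 6-phosphate receptors and activated there by the acid pH and by cleavage. Most are cysteine proteases, whereas Ctsd is an aspartic and Ctsa a serine protease. TFEB is a basic helix-loop-helix transcription factor that binds E-box sequences in the promoters of many lysosomal genes, several cathepsin genes among them. Ctss is abundant in macrophages and other antigen-presenting cells, and Ctsk is the main collagenase of osteoclasts and is also made by fibroblasts.

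Promoter sequences are shown for the members on which the comparison of the 2 classes turns, since the E-box is the sequence that TFEB binds. The RefSeq table for build GRCm38.p6 held 9 windows for 8 of the 10 genes, each with 250 bases before and 50 bases after an annotated transcription start, and had no entry for Ctsb and Ctsh. Capitals mark the E-box core CACGTG, the PU.1 core GAGGAAGT and the interferon response core (GAAA repeated after a gap of 2 bases), each searched on both strands, so that a PU.1 core on the opposite strand reads ACTTCCTC. PU.1 is the transcription factor on which macrophage development depends. Ctsd is on the minus strand at chr7:142387778-142388077 and the second Ctsa start is on the plus strand at chr2:164833523-164833822. Ctss, at chr3:95526536-95526835, and Ctsk, at chr3:95498960-95499259, are on the plus strand and are neighbours, with 0 protein-coding genes between them. For Ctsl (minus strand, chr13:64370731-64370770) and Ctsf (plus strand, chr19:4855066-4855111) the stretch around the match is given.
Ctsd: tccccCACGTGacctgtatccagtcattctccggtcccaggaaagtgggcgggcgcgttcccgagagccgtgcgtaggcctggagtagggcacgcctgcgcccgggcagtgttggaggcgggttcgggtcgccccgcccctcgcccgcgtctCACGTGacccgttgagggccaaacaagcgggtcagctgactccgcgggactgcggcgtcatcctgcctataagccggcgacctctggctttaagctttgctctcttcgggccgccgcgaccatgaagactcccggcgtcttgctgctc
Ctsa, second start: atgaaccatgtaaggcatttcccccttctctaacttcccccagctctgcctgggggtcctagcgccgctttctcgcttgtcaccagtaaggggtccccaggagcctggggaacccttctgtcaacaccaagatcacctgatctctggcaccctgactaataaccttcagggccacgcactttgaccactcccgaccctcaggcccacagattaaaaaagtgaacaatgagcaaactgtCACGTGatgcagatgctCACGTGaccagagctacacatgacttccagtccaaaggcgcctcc
Ctsl: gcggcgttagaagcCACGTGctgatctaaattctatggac
Ctsf: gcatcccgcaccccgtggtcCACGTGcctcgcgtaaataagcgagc
Ctss: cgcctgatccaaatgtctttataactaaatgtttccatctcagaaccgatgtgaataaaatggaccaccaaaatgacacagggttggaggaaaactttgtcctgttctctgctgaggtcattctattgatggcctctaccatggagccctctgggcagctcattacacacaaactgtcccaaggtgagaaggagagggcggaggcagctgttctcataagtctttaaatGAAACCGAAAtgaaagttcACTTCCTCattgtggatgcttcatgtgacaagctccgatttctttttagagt
Ctsk: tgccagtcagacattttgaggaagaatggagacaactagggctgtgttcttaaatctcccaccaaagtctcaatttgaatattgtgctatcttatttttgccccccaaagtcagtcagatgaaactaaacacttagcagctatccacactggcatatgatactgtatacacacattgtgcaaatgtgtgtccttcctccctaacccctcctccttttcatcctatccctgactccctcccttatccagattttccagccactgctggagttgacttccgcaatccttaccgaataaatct

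The E-box core was found in 4 of the 4 ubiquitous cathepsin genes with a window and in 0 of the 4 macrophage-enriched ones. Counted to the first base of the match, Ctsd carried it at 245 and 98 bases before the start, Ctsf at 79 and Ctsl at 236. Ctsa carried it at its second start, 12 bases before and 6 bases after that start, and its first start had none. Over all 32851 promoter windows of the table, 7.15% held the E-box core and 0.594% held 2 or more. Counted by gene, as the members were, 8.09% of 27025 genes held it. The longer form TCACGTG, which overlaps the E-box core, was present in Ctsa and Ctsd and in 3.77% of all windows. The PU.1 core stood in Ctss, 2 bases before the start, and in Ctsc, 151 bases before it, against 3.2% of all windows. Ctss also held the interferon response core 21 bases before its start, a motif present in 3.44% of all windows. By gene these shares were 4.29% for TCACGTG, 3.69% for the PU.1 core and 3.99% for the interferon response core. In Ctsk and Ctsz none of these motifs was found. These matches describe letters in a window, and no binding was measured.

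**Figure D1:**
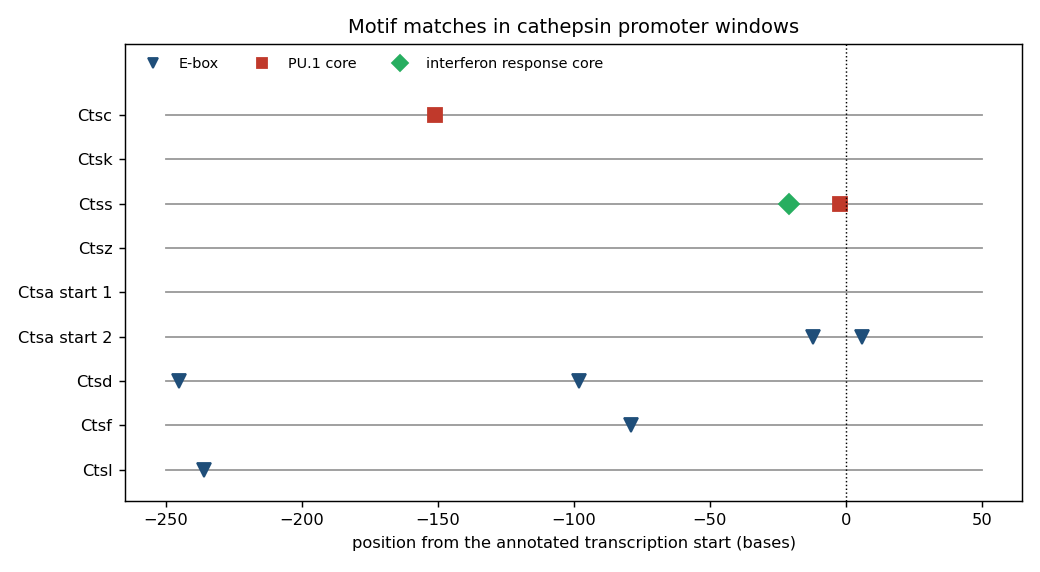
Motif matches in the 9 promoter windows of 8 cathepsin genes, plotted by position from the annotated transcription start in bases. E-box cores lie in the windows of Ctsa (second start), Ctsd, Ctsf and Ctsl, and PU.1 cores in those of Ctss and Ctsc.

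Expression was read as log2 values, so that a difference of 1 is a 2-fold change, and the probe set brightest on average stands for a gene that has several. Since probe sets differ in brightness, their levels are not set against each other. The probe set for Tfeb itself was lower in the arrays labelled TFEB, with log2 values of 8.49, 8.47 and 8.58 in GFP control and 7.92, 7.68 and 7.61 in TFEB. The sources used here do not say whether that probe set lies in the delivered cDNA, so it gives no check of delivery, and the directions below rest on the labels. The study itself describes 21 days as long enough for efficient TFEB expression. GFP control replicate 2 stood apart, differing over 2-fold from the other GFP arrays at 844 and 725 probe sets, while those differed from each other at 87 and the arrays labelled TFEB at 45 to 101. The difference between the 3' and 5' probe sets of actin, a measure of RNA integrity, was 0.037 to 0.077 in GFP control and 0.22 to 0.34 in TFEB, so that RNA quality moved with the group and its part in the results was not tested. Of 9 skeletal muscle markers, 0 passed the limma threshold given below, with 1 higher and 2 lower at an unadjusted p under 0.05 and a median log2 difference of -0.07.

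The ubiquitous cathepsins were higher in every array labelled TFEB than in every GFP control array. This held for 5 of 5 genes, against 22.9% of all genes whose groups did not overlap in that direction. The median log2 difference of the 5 genes was 0.44, beside -0.05 over all genes. Past the threshold (limma, adjusted p under 0.05 and at least 1.5-fold) were 2 of the 5, Ctsb and Ctsl, and without a fold limit 4 of the 5 were higher, against 16.8% of all genes. In whole muscle, more cells of a type and more RNA per cell cannot be told apart.

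Ctsb, a cysteine protease that works as both an endopeptidase and a peptidyl-dipeptidase, rose most within this class. Its log2 values were 10.84, 11.44 and 10.97 in GFP control and 11.85, 12.11 and 12.19 in TFEB. Every TFEB value lay above the highest control, which was replicate 2. The log2 difference was 0.96 ± 0.17 (SE, n = 3 arrays per group), a 1.95-fold change with an adjusted p of 0.00784. The other 3 probe sets of Ctsb also had groups that did not overlap, and gave log2 differences of 0.57, 0.50 and 0.58 with adjusted p-values of 0.0349, 0.0301 and 0.00927. Their changes were just under the 1.5-fold limit, so that 1 of the 4 Ctsb probe sets passed it.

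Ctsl, a cysteine endopeptidase with a broad range of protein substrates, measured 10.56, 10.54 and 10.70 in GFP control and 11.07, 11.34 and 11.25 in TFEB. The groups were apart, and control replicate 2 lay with the other controls. Ctsl rose by 0.62 ± 0.095, or 1.54-fold (adjusted p = 0.00461), which is close to the fold limit. Without TFEB replicate 2 the difference was 0.56 and no longer passed it.

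Ctsd, the main aspartic protease of the lysosome, had log2 values of 11.45, 11.53 and 11.48 in GFP control and 11.88, 11.89 and 11.997 in TFEB. Its GFP control arrays were the closest of any member (SD 0.0411), and the log2 difference of 0.44 ± 0.069 had an adjusted p of 0.00502. The change was 1.36-fold and so did not reach the limit. Ctsa, a carboxypeptidase that also protects beta-galactosidase and neuraminidase in the lysosome, was also apart, with 9.13, 9.29 and 9.16 in GFP control and 9.46, 9.67 and 9.70 in TFEB. Its difference was 0.42 ± 0.092 (1.34-fold, adjusted p = 0.0156). Ctsf, a cysteine protease known for trimming the invariant chain in macrophages, gave 7.99, 7.72 and 7.999 in GFP control and 8.14, 8.25 and 8.15 in TFEB. The Ctsf difference of 0.28 ± 0.097 (95% confidence interval 0.05 to 0.51) had an adjusted p of 0.0676 and did not pass.

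**Figure D2:**
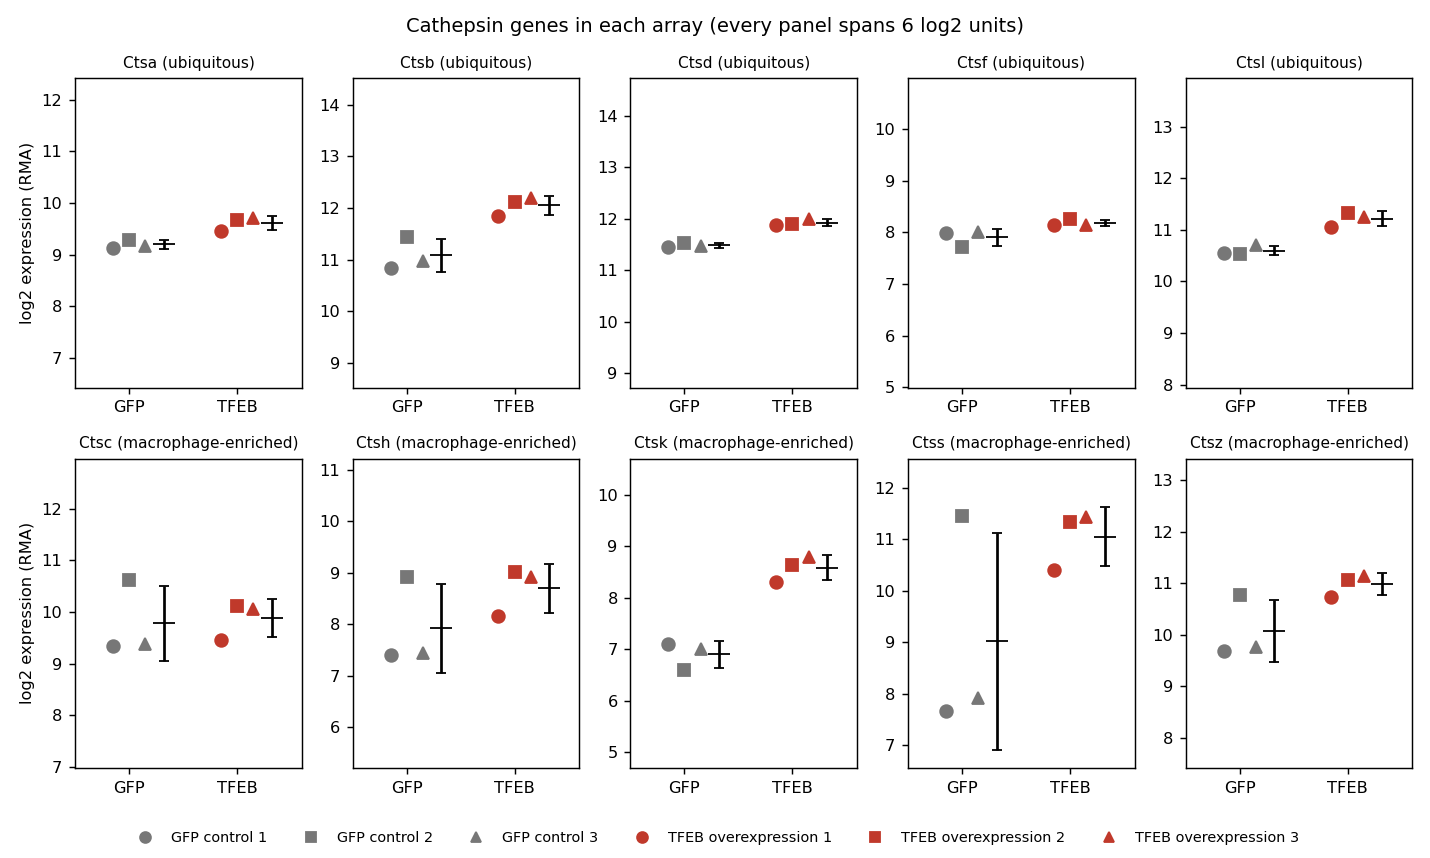
Log2 expression of the 10 cathepsin genes in each of the 6 arrays, with ubiquitous genes in the upper and macrophage-enriched genes in the lower row. Symbols are single arrays, bars are the mean ± SD of 3 arrays, and every panel spans 6 log2 units. The square of GFP control replicate 2 sits with the TFEB arrays for Ctsc, Ctsh, Ctss and Ctsz and below the other controls for Ctsk and Ctsf.

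Among the macrophage-enriched cathepsins the groups were apart for 1 of 5 genes, Ctsk, a share near the 22.9% of all genes, and Ctsk alone of the 5 passed the threshold. The other 4 genes had wide intervals, since GFP control replicate 2 lay as high as the arrays labelled TFEB. The class median of 0.91, with Ctsk included, was larger than that of the ubiquitous cathepsins, but the difference between the classes was not tested. Over both classes 3 of 10 cathepsins were past the threshold, all of them higher, against 8.62% of all genes that were higher, 4.9% that were lower and 13.5% in either direction.

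Ctsk showed the clearest separation, with log2 values of 7.11, 6.61 and 6.998 in GFP control and 8.32, 8.64 and 8.79 in TFEB. GFP control replicate 2 was the lowest of the 6 arrays. The rise was 1.68 ± 0.17 on the log2 scale, or 3.20-fold (adjusted p = 0.00132). Of all genes, 1.19% had a larger log2 difference.

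Ctss, which cleaves the invariant chain in antigen-presenting cells and stays active at neutral pH, gave 7.67, 11.45 and 7.92 in GFP control and 10.40, 11.33 and 11.42 in TFEB. Control replicate 2 was the highest of the 6 arrays, while the other controls lay far below every TFEB array. The mean difference was the largest of the 10 members, 2.03 ± 0.98, yet its 95% confidence interval ran from -0.29 to 4.36 and the adjusted p was 0.153.

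Ctsh, an aminopeptidase, gave 7.41, 8.92 and 7.44 in GFP control and 8.15, 9.01 and 8.92 in TFEB. Control replicate 2 lay among the TFEB arrays and far above the other controls. Its difference was 0.77 ± 0.44, with an interval from -0.28 to 1.82 and an adjusted p of 0.221. Ctsc, the dipeptidyl peptidase that activates the granule proteases of leukocytes, measured 9.33, 10.61 and 9.38 in GFP control and 9.45, 10.12 and 10.06 in TFEB. Here control replicate 2 exceeded every TFEB array, and the difference of 0.10 ± 0.37 (interval -0.77 to 0.98, adjusted p = 0.847) had no settled direction.

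Ctsz, a carboxypeptidase also called cathepsin X, was read by 3 probe sets that straddled the threshold. The brightest gave 9.69, 10.77 and 9.76 in GFP control and 10.74, 11.06 and 11.14 in TFEB, a difference of 0.91 ± 0.29 (adjusted p = 0.0540). Control replicate 2 lay just above the lowest TFEB array, so the groups overlapped. A second probe set differed by 0.93 (adjusted p = 0.0545), and the third differed by 1.19, or 2.28-fold (adjusted p = 0.0257), and passed.

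**Figure D3:**
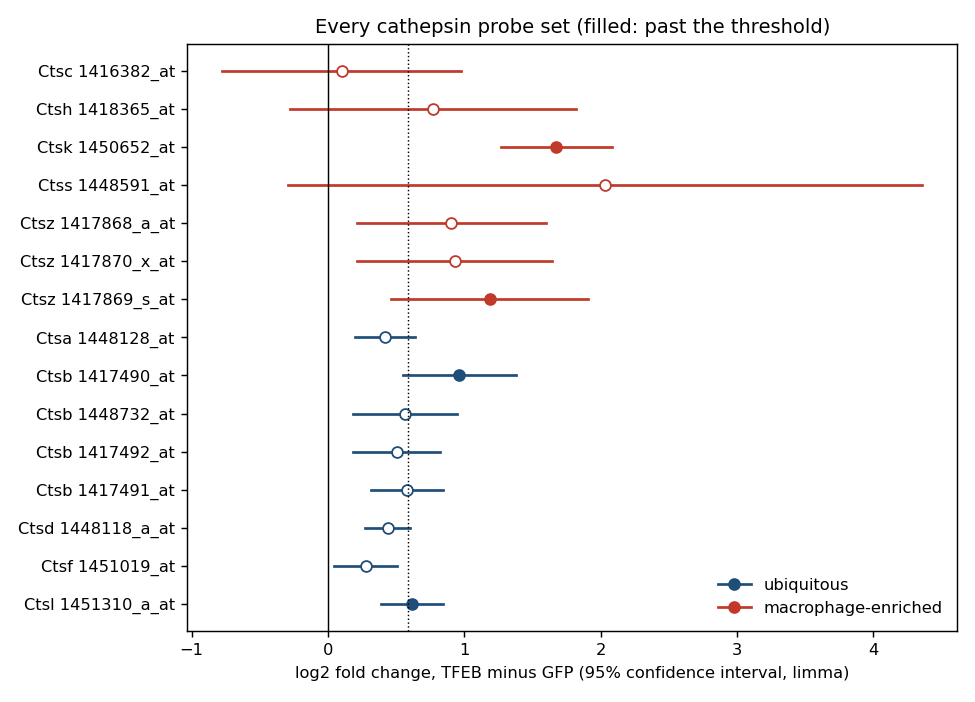
Log2 difference (TFEB minus GFP control) of all 15 cathepsin probe sets with the 95% confidence interval from limma. Filled points passed the threshold, and the dotted line marks the 1.5-fold limit. The 4 Ctsb probe sets lie between 0.50 and 0.96 and the 3 Ctsz probe sets between 0.91 and 1.19.

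GFP control replicate 2 thus divided the macrophage-enriched class. Relative to the mean of the other GFP arrays, Ctss was 12.6-fold higher in that array, Ctsh 2.81-fold, Ctsc 2.38-fold and Ctsz 2.07-fold. Ctsk did not share this, being at 0.734 of the other controls. In the ubiquitous class Ctsb was 1.45-fold, Ctsa 1.11-fold and Ctsd 1.05-fold higher there, and Ctsl and Ctsf were lower (log2 differences of -0.09 and -0.27). By contrast, GFP control replicates 1 and 3 differed by at most 0.25 for any of the 10 genes. Set against replicate 2 alone, as a description with no test, the TFEB mean was higher by 1.97 for Ctsk, 0.68 for Ctsl, 0.61 for Ctsb, 0.46 for Ctsf, 0.39 for Ctsd, 0.32 for Ctsa and 0.21 for Ctsz. It was lower than that array for Ctsc (-0.73), Ctss (-0.40) and Ctsh (-0.22).

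Without GFP control replicate 2, 6 of the 10 cathepsins were past the threshold and higher, against 12.3% of all genes. They were 2 ubiquitous and 4 macrophage-enriched genes, Ctsk among the latter. This setting is singled out because that array stood apart, and it leaves GFP control replicates 1 and 3 only. For Ctss, Ctsh, Ctsc and Ctsz that array held the high control value. Their smaller p-values below follow from its removal and are no added support. The difference of Ctss became 3.25 ± 0.29 (9.53-fold, adjusted p = 0.000411). Ctsh then differed by 1.27 ± 0.24 (adjusted p = 0.00653) and Ctsz by 1.26 ± 0.13 (adjusted p = 0.000617). Ctsc remained short of the threshold at 0.52 ± 0.20 (adjusted p = 0.0755). Ctsb and Ctsk passed with and without that array, at 1.14 and 1.53 without it. Ctsl did as well, at 0.59.

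**Figure D4:**
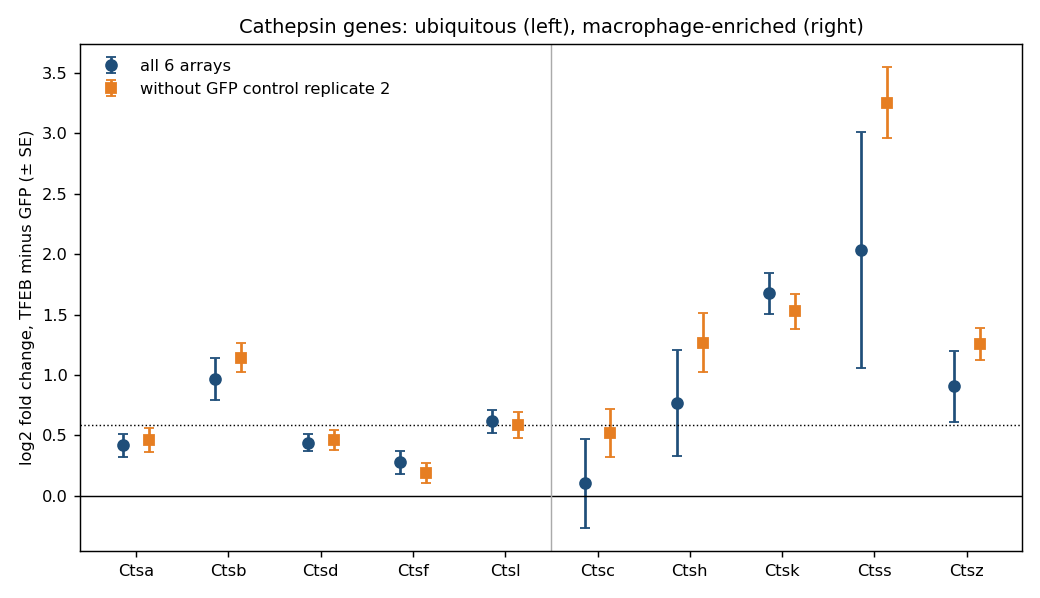
Log2 difference (TFEB minus GFP control, ± SE) of the 10 cathepsin genes from all 6 arrays and without GFP control replicate 2, with the dotted line at the 1.5-fold limit. Ctsb went from 0.96 to 1.14 and Ctsk from 1.68 to 1.53, whereas Ctss went from 2.03 to 3.25 and Ctsh from 0.77 to 1.27.

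Macrophage markers stood beside this pattern. The summed linear level of 25 macrophage markers was 4875, 22362 and 5564 in GFP control and 15077, 24680 and 24761 in TFEB, so replicate 2 was again with the TFEB arrays, and no marker was listed at 0. Of the 25, 3 rose with all arrays (median difference 1.20), against 8.62% of all genes. Without replicate 2, 22 rose (median 2.09), against 12.3% of all genes. Since that array held the high control level of these markers, the second count follows from its removal and is no added support. The two-sample test of the study's general statistics called 0 with all arrays. Cd68, a lysosomal glycoprotein of macrophages, rose 6.62-fold (adjusted p = 0.0102). The other markers that rose, named after their values were seen, were Lgals3 (8.03-fold) and Ms4a7 (4.89-fold), whereas Adgre1 and Csf1r, which define the lineage, were 3.04-fold (adjusted p = 0.124) and 2.44-fold (adjusted p = 0.0524) higher and did not pass. As a mean deviation from each gene's 6-array mean, the macrophage-enriched cathepsins were at -1.05, 0.38 and -0.99 in GFP control and at 0.12, 0.75 and 0.78 in TFEB. These means include Ctsk, which was at 0.734 of the other controls in replicate 2 and so did not follow the macrophage markers there. The ubiquitous cathepsins were at -0.33, -0.22 and -0.26 and at 0.15, 0.33 and 0.33, so that replicate 2 stayed with its group on this mean. Within the mean the members differed. Relative to the other controls, replicate 2 was at 0.54 for Ctsb, 0.15 for Ctsa, 0.07 for Ctsd, -0.09 for Ctsl and -0.27 for Ctsf. The part of macrophage RNA in these differences was not tested.

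Other cell types were read in the same way, beside 8.62% of all genes that were higher with all arrays. Without GFP control replicate 2 that share was 12.3%. Fibroblast markers, of which 6 of 10 rose, had summed levels of 16094, 14271 and 15167 in GFP control and 26272, 33221 and 32806 in TFEB, and in GFP control they were lowest in replicate 2, as Ctsk was. Col1a1, the chain of type I collagen, rose 4.81-fold (adjusted p = 0.00103), and Pdgfra, a receptor that marks the mesenchymal progenitors of muscle, differed by 0.51 (adjusted p = 0.0470). Endothelial markers rose in 6 of 8 genes and were also lowest in replicate 2. Of 6 measured osteoclast and giant cell genes, 0 passed by limma, with 0 higher and 1 lower at an unadjusted p under 0.05. Acp5, their acid phosphatase, differed by 0.43 (adjusted p = 0.141, and 0.65 with a call without TFEB replicate 1), and Atp6v0d2 was not measured. Of 9 lymphocyte markers 0 passed, with 0 at an unadjusted p under 0.05, and they were highest in GFP control replicate 2, with a mean deviation of 0.88 there. Without that array Cd3d and Cd3g, components of the T cell receptor complex, passed as higher (2 of 9, with the median moving from -0.11 to 0.14). These calls follow from its removal and are no added support. Neutrophil markers rose in 2 of 6 genes, S100a8 and S100a9, also named after their values were seen, and S100a9 did not pass without GFP control replicate 2 (0.52). Csf3r (0.10), Ltf (0.02), Elane (-0.07) and Mpo (-0.16) did not pass with all arrays, and the median of the list was 0.06. Whether fibroblasts or endothelium carried the Ctsk difference was not tested.

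**Figure D5:**
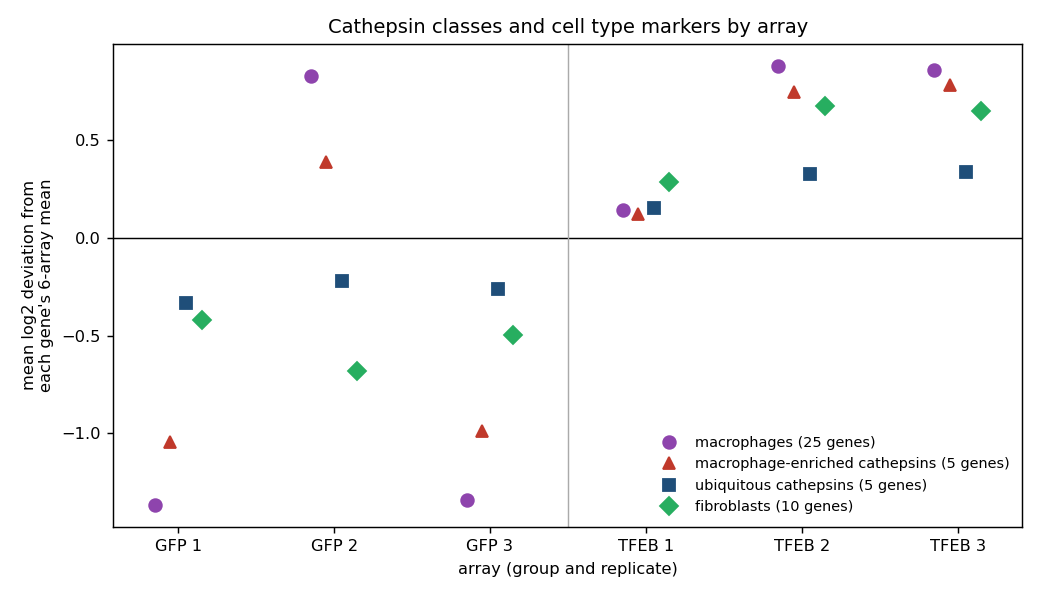
Mean log2 deviation from each gene's 6-array mean, by array, for the 2 cathepsin classes and for macrophage and fibroblast markers. In GFP control replicate 2 the macrophage markers (0.83) and macrophage-enriched cathepsins (0.38, Ctsk included) lie above 0, while the ubiquitous cathepsins (-0.22) and fibroblast markers (-0.68) lie below it.

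The members also differed in how they varied over the arrays. Pearson correlations across the 6 arrays are given as a description, since the arrays share the group difference and the deviation of replicate 2. Ctss moved with Ctsh (r = 0.977) and Ctsz (r = 0.977), and Ctsk moved with Ctsl (r = 0.972) and Ctsd (r = 0.954). These pairs were not separate groups. Ctsz had an r of 0.956 with the ubiquitous Ctsb and 0.908 with Ctsa, and Ctss of 0.873 with Ctsb. Ctsk and its neighbour Ctss had an r of 0.51, and Ctsk and Ctsc of 0.020. Over all 12393 genes, those most like Ctss were Sdc3 (r = 0.9996), Mpeg1 (0.999) and Cmpk2 (0.9985). Those most like Ctsk were Thbs4 (r = 0.9988), Sox17 (0.9981) and Ccdc80 (0.9981). Ctsb was closest to Lmo2 (r = 0.9985), Pdia6 (0.9982) and Tmem165 (0.9979), and Ctsd to Atxn7l3b (r = 0.9998), Emc10 (0.9995) and Nans (0.9989). With 6 arrays such values are common, as 56 genes exceeded 0.99 for Ctss, 59 for Ctsk, 46 for Ctsb and 121 for Ctsd.

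Of 12 other cathepsins listed, 11 had a probe set, 0 passed as higher by limma, with 0 higher at an unadjusted p under 0.05, and the median difference was -0.06. Ctsj, Ctsm, Cts3, Cts6 and Cts8 had group means of 2.55 to 2.89, within the range of the bacterial control probe sets (2.54 to 3.09). Ctsg, Ctsq, Ctsr and Cts7 had group means of 2.81 to 3.69. Most of the list thus lay at or little above that level, so its count and median cannot show a lack of change in expressed genes. Ctse, an aspartic cathepsin of immune and gastric cells, was lower by the threshold, with 6.16, 6.66 and 6.21 in GFP control and 5.39, 5.93 and 5.74 in TFEB. Ctse fell by 0.65 on the log2 scale (adjusted p = 0.0354), whereas its other probe set gave -0.08 (adjusted p = 0.629). Leaving out any of the 3 GFP control arrays or TFEB replicate 1 or 3 ended this call, with differences of -0.49 to -0.75. Ctsw, a cathepsin of cytotoxic lymphocytes named after its values were seen, gave 5.43, 7.29 and 5.69 in GFP control and 6.19, 5.97 and 6.37 in TFEB, with control replicate 2 the highest array. Its difference was 0.04 (adjusted p = 0.957) with all arrays and 0.61 (adjusted p = 0.0126) without replicate 2, where it passed. That call follows from removing its highest array and is no added support. Ctso had no probe set with its symbol alone.

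Cysteine cathepsins are held in check by cystatins, of which 9 of 19 listed were measured and 1 rose, against 8.62% of all genes. Cstb, the cytosolic inhibitor of cysteine cathepsins, was at 8.94, 10.23 and 9.05 in GFP control and 11.62, 11.44 and 11.95 in TFEB. Every TFEB array was above control replicate 2, which was itself the highest control. The rise was 2.27 ± 0.34, or 4.81-fold (adjusted p = 0.00437), and the second Cstb probe set gave 2.04. Cst3, the secreted inhibitor cystatin C, differed by -0.25 ± 0.097 (adjusted p = 0.0963). Cst7, an inhibitor of immune cells named after its values were seen, was at 4.42, 6.07 and 4.77 in GFP control and 6.10, 5.74 and 6.44 in TFEB. It differed by 1.00 (adjusted p = 0.113) with all arrays and was 2.82-fold higher (adjusted p = 0.00181) without GFP control replicate 2. There 2 cystatins were higher, against 12.3% of all genes. That array held the high control value of Cst7, so its call there is no added support. The median over the 9 genes was -0.09. Stfa3, Cst9, Cst10, Cst11 and Cst12 had group means of 2.98 to 3.29, at or near the level of the bacterial control probe sets (2.54 to 3.09). The median therefore cannot show a lack of change in expressed cystatins.

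Genes that sort, process or partner with cathepsins were measured for 15 of 18 listed (median 0.17). Past the threshold 6 rose and 0 fell, against 8.62% and 4.9% of all genes. Without a fold limit 6 were higher, against 16.8% of all genes, and 3 were lower, Gnptab, Sort1 and Vps35. Sort1, named after its values were seen, differed by -0.26 (adjusted p = 0.0258). Lgmn, the asparaginyl endopeptidase that cleaves cathepsin precursors, was at 7.42, 8.63 and 7.54 in GFP control and 9.07, 9.51 and 9.66 in TFEB. It rose by 1.55 ± 0.33, or 2.92-fold (adjusted p = 0.0144), and the call was lost without GFP control replicate 3 (1.39) or TFEB replicate 3 (1.42). Igf2r, the large mannose 6-phosphate receptor, measured 9.35, 9.25 and 9.21 in GFP control and 10.08, 9.90 and 10.10 in TFEB, and rose 1.69-fold (adjusted p = 0.0017). Gga2, an adaptor that loads this receptor for transport from the Golgi, rose 1.70-fold (adjusted p = 0.000965). Glb1, the beta-galactosidase that Ctsa protects, rose 2.17-fold (adjusted p = 0.0101), and Hexa, a hexosaminidase subunit, rose 1.81-fold (adjusted p = 0.00473). Neu1, M6pr and Gga1, named after their values were seen, did not pass. They differed by 0.13, 0.05 and -0.06 (adjusted p of 0.209, 0.838 and 0.622). Other probe sets of Neu1 gave -0.11 and -0.28. Grn, the precursor of granulins that binds lysosomal proteases, rose 3.01-fold (adjusted p = 0.0401) and its values were 8.51, 10.19 and 8.40 in GFP control, high in replicate 2, and 10.38, 10.62 and 10.86 in TFEB. The Grn call was lost when any array other than GFP control replicate 2 was left out, at differences of 1.27 to 1.71. Gnptab, the phosphotransferase that begins the mannose 6-phosphate tag, ran the other way at -0.46 (adjusted p = 0.0157), under the fold limit. Vps35, of the retromer that returns sorting receptors to the Golgi, differed by -0.38 (adjusted p = 0.0160) in its representative probe set, and its other probe set fell by 1.02 (adjusted p = 0.00386), a value chosen after it was seen.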

How the data were processed

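Total RNA from muscle of 6 mice was hybridised to Affymetrix arrays. The values deposited by the authors are log2 expression values, which per the labels came from the affy package with RMA (background correction, quantile normalization and probe summary). Versions are not given in the sources used here. Quantile normalization can remove a shift shared by most genes, and the number of arrays limits the precision. Of 22690 probe sets, 64 controls were left out and 22626 tested. GEO's platform annotation gave 1 symbol to 20380, several to 691 and none to 1555. Entrez identifiers matched RefSeq (GRCm38.p6) for 20351 of the first, and 0 symbols changed. For each of 12393 genes the brightest probe set on average was used, and 0 sample columns were left unused.

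Groups of 3 arrays were compared with limma 3.58.1 in R 4.3.3 (lmFit, eBayes, two-sided), with Benjamini-Hochberg adjustment over all 22626 probe sets. Every adjusted p is from this fit unless an alternative is named. The threshold, an adjusted p under 0.05 and a change of at least 1.5-fold, was taken from a legend to the gene list of the study, whose array methods were not seen. Named were all members, list genes past the threshold or of smallest p, fixed markers, and the 3 genes most correlated with Ctss, Ctsk, Ctsb and Ctsd. Members and lists were chosen with earlier results of these data known. The fit was tested on simulated data. Promoter sequences are from RefSeq (GRCm38.p6), 1 or more windows a gene.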

Additional observations from a re-analysis of the deposited data

How the results depend on the processing

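Under 15 alternatives for each of the 10 cathepsins, 135 of 150 values kept their direction and side of the threshold, 10 came to pass it, 2 ceased to and 3 reversed. Ctsb and Ctsk passed in 15 of 15. The reversals were of Ctsc, whose difference ran from -0.12 to 0.52 with 1 array left out. It was -0.12 without the first GFP array, -0.094 without the third and -0.019 without TFEB replicate 2. Ctsl lost its call at 0.56 without TFEB replicate 2 and at 0.55 with equal array medians. With 1 array left out, 2 to 6 cathepsins passed, 1 to 2 of them ubiquitous and 1 to 4 macrophage-enriched, against 3, 2 and 1 with all arrays. Array weights gave 6, with 4 macrophage-enriched. Equal medians gave 1 ubiquitous and 2 macrophage-enriched. The replicate number as a block also gave 2 macrophage-enriched, as did a brightness filter and the mean of a gene's probe sets, the added gene in these being Ctsz. Where Ctsz was added the cause was not tested. Deviations of equally numbered arrays from their group means correlated at 0.422, 0.166 and -0.233. With 3 arrays per group these values cannot settle whether the replicate numbers pair the samples.

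For the other cathepsins, cystatins and handling genes, alternatives were added after seeing the data. With all arrays 8 were called (7 higher, 1 lower). The count was 5 without GFP control replicate 3, 5 without TFEB replicate 3 and 4 by the methods' test. It ranged from 5 to 9 with 1 array left out, and the 9, without GFP control replicate 2, were all higher, with Ctsw and Cst7 gained and Ctse lost. Ctse lost its call in 9 of 14 alternatives, Grn in 7 of 15, Lgmn in 3 of 15 and Glb1 in 1 of 14. Over all probe sets, 3082 passed (1700 higher, 1382 lower) and 2429 to 4222 with an array left out. Equal medians turned that split to 1475 higher and 1789 lower, and scaling to fast fibre genes to 2069 and 1058. Equal medians moved the median of all probe sets by -0.069 and fast fibre scaling by 0.075. Every member stayed positive under these scalings. Signal over background was not tested per probe set, and probe sets at the level of the bacterial controls (2.54 to 3.09), such as several other cathepsins, cannot show a fall.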
